A study of Mus musculus with 6 samples.

Results

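Intestinal IgA is made by plasma cells under the epithelium and carried into the gut lumen by epithelial cells, and 9 genes of this chain were followed in mouse duodenum. They were chosen by name from the deposited gene tables: Cd79a, Cd79b and Ms4a1 of the B cell surface, Tnfrsf17 and Igj of plasma cells, Pigr of IgA transport, Ccl28 and Ccr10 of plasma cell recruitment, and Tnfsf13b of B cell survival. All 9 were found among the 23034 gene symbols used, and 8 passed the filter on low values. RNA came from the first 2 cm of duodenum of mice aged 6 weeks, of mixed background, with 3 control and 3 mutant libraries. Control 1 was Nkx2.2flox/+; Rosa26Tomato/+, control 2 was Rosa26Tomato/+ and control 3 was WT. Mutants 1 and 3 were Nkx2.2flox/SD; Villin-Cre/+; Rosa26Tomato/+, and mutant 2 was Nkx2.2flox/SD; Villin-Cre/+. Nkx2.2 is a transcription factor of gut and pancreatic endocrine cells, and Villin drives Cre in the intestinal epithelium, so lamina propria lymphocytes are not cells in which this Cre is known to act. Villin-Cre, the floxed allele opposite SD, and the SD allele in all other cells set every mutant apart from every control and cannot be told apart here.

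In the gut, naive B cells meet antigen in lymphoid follicles, switch to IgA and return to the lamina propria as plasma cells. Plasma cells lose much of the B cell surface programme and secrete IgA dimers held together by the J chain. The polymeric immunoglobulin receptor binds these dimers at the base of epithelial cells, crosses the cell with them and releases them at the lumen. Epithelial chemokines draw the cells in, and the cytokines BAFF and APRIL keep them alive.

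Read depth, recovered from the coverage of the isoform tables, ran from 19.6 to 21.4 M for the controls and from 19.1 to 22.9 M for the mutants. No 2 libraries held identical values. The labels do not state that every library came from a separate animal. Only mutants 1 and 3 share a genotype, and those differ in sex as given below. No 2 libraries are therefore repeats of 1 animal, and p-values measure the spread between these libraries. Nkx2-2, the targeted gene, was at 1.07, 0.647 and 0.716 FPKM across the controls, against 0.564, 0.772 and 0.909 across the mutants, overlapping between groups. These gene-level values do not check the labels, since the sources used here do not say which part of the transcript each allele removes. Xist and Y-linked transcripts divided the libraries into 1 male and 2 female in each group: control 1 and mutant 1 were male (Xist at 0.037 and 0.067 FPKM), and the other libraries female (17.1 to 21.9 FPKM). Levels are given in FPKM, fragment counts scaled to transcript length and library depth, which allows levels of different genes to be set side by side. Group values are mean ± SD (n = 3).

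The promoters of the 3 genes on which the comparisons below turn are shown first, as the RefSeq windows of GRCm38.p6 from 250 bases before to 50 bases after the start site. Each window matched once, without a mismatch, among the mm9 chromosomes that hold a member and the unplaced sequences. Other chromosomes were not searched, and the coordinates are those of mm9. They were searched on both strands for CACGTG (the E-box bound by USF factors), ATGCAAAT (the octamer of B lineage promoters), 2 copies of GAAA set 2 bases apart (the core of interferon-stimulated elements), GGAAGT (an Ets core) and TATAAA, and capitals mark each match. None of these motifs overlaps another of them in the 3 windows.
Pigr, chr1:132723011-132723310, + strand: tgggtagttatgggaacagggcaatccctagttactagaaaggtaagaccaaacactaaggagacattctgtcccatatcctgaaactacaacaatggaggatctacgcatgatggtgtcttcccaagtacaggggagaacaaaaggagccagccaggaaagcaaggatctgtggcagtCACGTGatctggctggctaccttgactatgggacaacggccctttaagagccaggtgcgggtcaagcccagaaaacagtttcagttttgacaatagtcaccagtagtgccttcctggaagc
Cd79a, chr7:25682266-25682565, + strand: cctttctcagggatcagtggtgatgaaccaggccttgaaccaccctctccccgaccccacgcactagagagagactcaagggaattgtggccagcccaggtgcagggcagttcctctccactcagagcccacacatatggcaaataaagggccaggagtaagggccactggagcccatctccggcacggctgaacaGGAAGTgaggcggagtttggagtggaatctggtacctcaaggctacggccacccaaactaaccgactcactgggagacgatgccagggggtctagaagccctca
Tnfrsf17, chr16:11313652-11313951, + strand: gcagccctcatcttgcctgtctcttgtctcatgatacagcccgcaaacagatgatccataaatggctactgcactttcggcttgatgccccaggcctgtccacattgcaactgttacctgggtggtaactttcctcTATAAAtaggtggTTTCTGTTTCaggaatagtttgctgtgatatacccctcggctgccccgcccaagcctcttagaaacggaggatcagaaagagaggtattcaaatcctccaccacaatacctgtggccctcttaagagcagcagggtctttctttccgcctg
The Pigr window held 1 E-box, 71 bases before the start site, and 7.24% of 27025 RefSeq promoters held one. The Cd79a window held 1 Ets core, 54 bases before the start site, which 24.1% of promoters held. The Tnfrsf17 window held TATAAA 114 bases and the interferon-type core 101 bases before the start site, found in 14.2% and 3.49% of promoters. The octamer, present in 1.75% of promoters, was in none of the 3 windows. A match is a description of the letters and not evidence of binding.

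Levels of the 8 measured genes spanned a wide range. Pigr, the receptor gene, had a mean of 1739 FPKM over the 6 libraries and ranked between 38 and 52 of all genes. Igj, the J chain gene, had a mean of 1631 FPKM and ranked between 40 and 58. The level of Igj was 0.790 to 1.04 times that of Pigr in the same library, and Pigr was the higher of the pair in 5 of 6 libraries, so their order was not the same in every library. Cd79a, the signalling chain Ig-alpha of the B cell receptor, followed at 15.1 FPKM and lay above the other 5 measured members in all 6 libraries. Tnfsf13b, which encodes BAFF (10.6 FPKM), Cd79b, which encodes Ig-beta (10.3 FPKM), and Tnfrsf17, which encodes the plasma cell receptor BCMA (10.3 FPKM), did not hold a fixed order. Ccr10, the chemokine receptor of IgA plasma cells, came next at 6.28 FPKM, and Ms4a1, which encodes the B cell surface protein CD20, was last at 0.301 FPKM.

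No measured member differed between the groups past the threshold. Of the 8 tested, 7 had log2 changes above 0 and 1 below, and 0 passed at a limma adjusted p under 0.05 over the 14642 genes tested, where 0% of all genes passed. Limma-voom on recovered reads also called 0 members, and 0 of all 14642 genes tested. At an unadjusted p under 0.05 the count was 1 of 8 members, against 2.84% of all genes (416). That member was higher in mutants, as were 1.98% of all genes at this p, and 0.861% were lower. The groups did not overlap for 1 of 8 members, against 7.57% of all genes, 4.14% with mutants above controls and 3.43% below. The median log2 change of the 8 was 0.16, beside 0.0042 over all genes tested, of which 51.2% lay above 0. In a bulk sample, fewer cells of a type and less RNA per cell cannot be told apart.

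**Figure D1:**
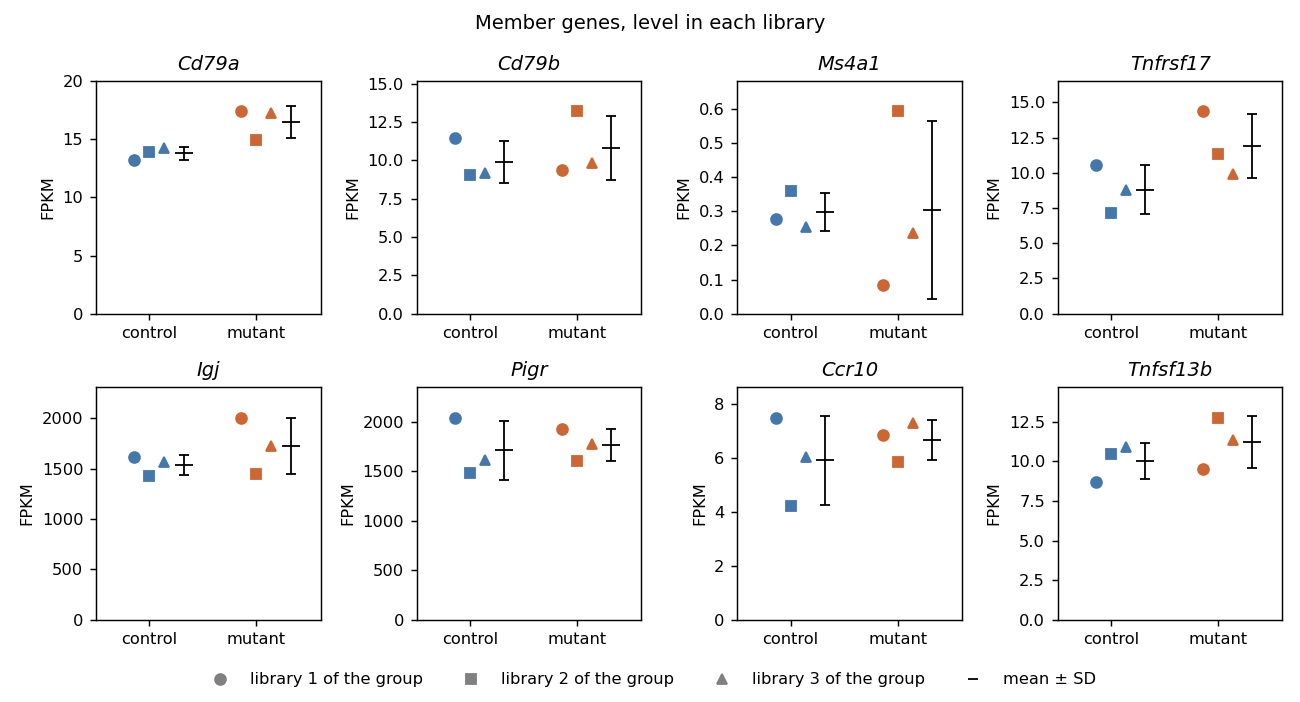
Level in FPKM (y axes, from 0) of the 8 measured members in each control and mutant library, 1 point per library with the marker giving its number, and mean ± SD beside it. Only Cd79a has all 3 mutants above all 3 controls, and the mutants of Ms4a1 run from 0.085 to 0.592 FPKM, the widest spread relative to its mean of the 8.

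Among the B cell receptor genes, Cd79a (chromosome 7, 25682530 to 25687216, mm9) was at 13.2, 13.9 and 14.2 FPKM in control libraries 1, 2 and 3, and at 17.4, 14.9 and 17.2 FPKM in mutant libraries 1, 2 and 3. Library values are given in this order throughout. All 3 mutants lay above all 3 controls, although mutant 2 was close to control 3. The group means were 13.8 ± 0.539 and 16.5 ± 1.37 FPKM, on 958 and 1178 reads. The log2 change was 0.26 (SE 0.097), a 1.20-fold difference with a 95% interval of 1.02 to 1.40, with an unadjusted p of 0.032 and an adjusted p of 1.0 in limma. The exact two-sided permutation test gave p = 0.1, the smallest that 3 against 3 allows.

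Cd79b (chromosome 11, 106172655 to 106175843), whose product pairs with that of Cd79a in the same receptor, was at 11.4, 9.03 and 9.18 FPKM in the control libraries and 9.38, 13.2 and 9.85 in the mutant libraries. Mutant 2 and control 1 were the highest libraries and the others lay close together, so the groups overlapped. It gave a log2 change of 0.12 (SE 0.16), with a fold interval of 0.834 to 1.41, and turned to -0.03 without mutant 2. The level of Cd79a was 1.13 to 1.85 times that of Cd79b, with the lowest ratios in mutant 2 and control 1.

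Ms4a1 (chromosome 19, 11325093 to 11340641) stood near the limit of detection. It was at 0.278, 0.359 and 0.254 FPKM (controls), and 0.085, 0.592 and 0.236 (mutants). The reads behind these were 11, 13 and 10, then 3, 24 and 10. Mutant 1 was the lowest and mutant 2 the highest of all 6 libraries. Its log2 change of -0.17 (SE 0.48) had a fold interval of 0.406 to 1.94, and it turned to 0.29 without mutant 1. Summed over each group, 34 and 37 reads gave a depth-scaled ratio of 1.06, and counting error alone puts it between 0.648 and 1.74 (exact 95% interval). Its locus overlaps that of 4930526L06Rik, whose highest level was 0.058 FPKM.

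Other defining genes of mature B cells had few reads. Pax5, the factor that defines B cells, had 2 reads in all 6 libraries, the complement receptor gene Cr2 had 18 and the low-affinity IgE receptor gene Fcer2a had 12. These defining B cell markers were thus at or near 0 in every library. Cd79a stood 25.2 to 205 times above Ms4a1, with both extremes among the mutants, mutant 2 at the lower and mutant 1 at the higher end.

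**Figure D2:**
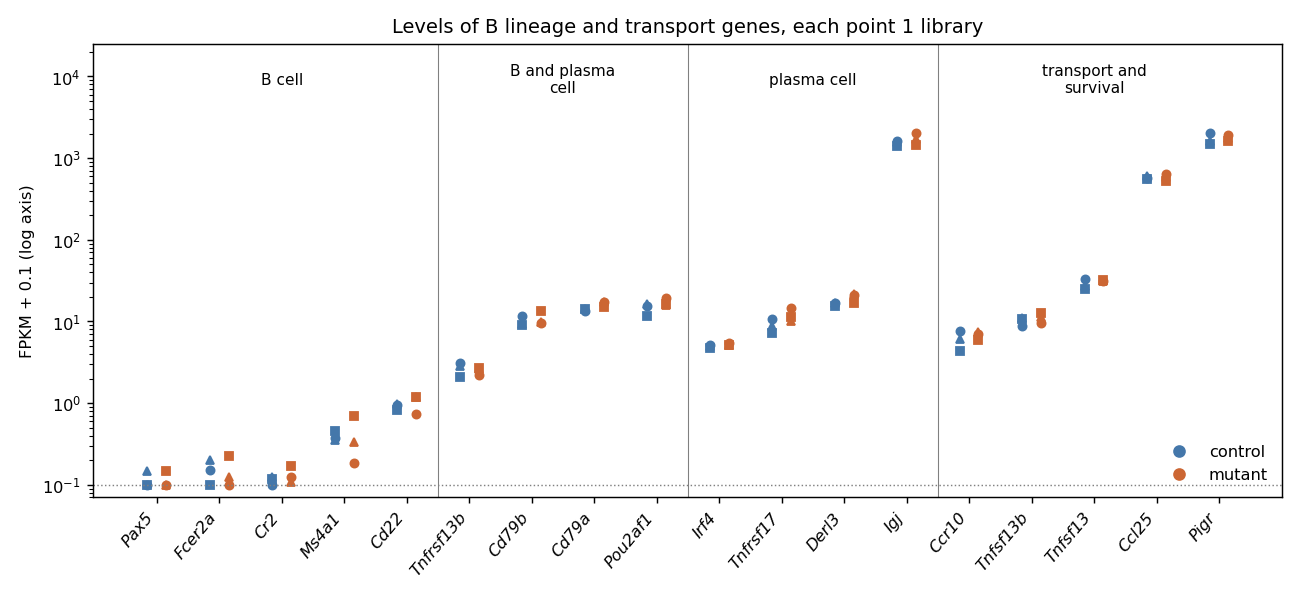
FPKM + 0.1 (log axis) of B cell, plasma cell, transport and survival genes in each library, controls in blue and mutants in orange, markers as in the plot of members by library. The dotted line marks 0 FPKM. Pax5, Fcer2a and Cr2 lie at or near that line, and Igj and Pigr are the highest in both groups.

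The plasma cell genes were well covered. Tnfrsf17 (chromosome 16, 11313902 to 11320161) was at 10.6, 7.12 and 8.75 FPKM in the control libraries and 14.4, 11.4 and 9.94 in the mutant libraries. Mutants 1 and 2 lay above every control, and mutant 3 lay below control 1. Its means of 8.81 ± 1.72 and 11.9 ± 2.26 FPKM gave the largest log2 change of the 8, 0.43 (SE 0.19), with a fold interval of 0.994 to 1.82 (limma unadjusted p = 0.054, adjusted p = 1.0; exact permutation p = 0.2). In each group the male was the highest library, at 10.6 FPKM (controls), and 14.4 (mutants), while the female means were 7.93 and 10.6 FPKM. With a term for sex the log2 change of Tnfrsf17 was the same and its SE was 0.11 (unadjusted p = 0.0082, adjusted p = 0.996). In that fit 2 of 8 members, Cd79a and Tnfrsf17, had an unadjusted p under 0.05, against 4.18% of all genes, and 0 passed after adjustment.

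Igj (chromosome 5, 88948834 to 88956922) was at 1613, 1425 and 1567 FPKM across controls, against 2009, 1447 and 1726 across mutants. Mutants 1 and 3 exceeded all controls, and mutant 2 lay between control 2 and control 3. Its log2 change was 0.16 (SE 0.14), with a fold interval of 0.893 to 1.40. Without mutant 1 it was 0.04. Relative to Tnfrsf17 in the same library, Igj stood at 153, 200.1 and 179 in controls and 140, 127 and 174 in mutants, so the ratios overlapped.

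The wider plasma cell programme gave no call. Of 13 tested genes of that list, 11 had log2 changes above 0 and 2 below, with a median of 0.07, and 0 passed either after adjustment or at an unadjusted p under 0.05. Derl3, which acts in disposal of misfolded secretory proteins, was at 16.3 ± 0.670 FPKM in the control libraries and 19.9 ± 2.78 in the mutant libraries (log2 change 0.27, SE 0.12; unadjusted p = 0.056). Creld2, a stress-induced endoplasmic reticulum gene, was at 73.8 ± 5.62 and 83.3 ± 1.85 FPKM, without overlap (log2 change 0.18, SE 0.086). Cd27, a receptor of memory and plasma cells, was at 1.03 ± 0.210 and 0.830 ± 0.336 FPKM. Many genes of this list, such as Xbp1 and Creld2, are also expressed by secretory epithelial cells.

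Pigr (chromosome 1, 132723261 to 132748826) was at 2041, 1479 and 1609 FPKM (controls), and 1926, 1604 and 1773 (mutants). Control 1 was the highest and control 2 the lowest library, so the mutants lay within the control range. Pigr had a log2 change of 0.06 (SE 0.14), with a fold interval of 0.823 to 1.32, and it turned to -0.04 without control 2, -0.0058 without mutant 1 and -0.04 with quantile normalization. Set against Epcam, a pan-epithelial gene, the level of Pigr was 2.72, 2.00 and 2.19 times as high in controls and 2.66, 2.06 and 2.46 times in mutants. The male was again the highest library of each group on either scale.

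Genes on which the receptor's passage through the cell depends gave no call. Of 11 tested, 4 had log2 changes above 0 and 7 below, with a median of -0.06, and 0 passed. Rab17, a small GTPase of apical transcytosis, was at 50.9, 59.2 and 55.9 FPKM across controls, against 50.3, 47.4 and 41.9 across mutants, without overlap (log2 change -0.25, SE 0.10; limma unadjusted p = 0.044, adjusted p = 1.0). It was the 1 gene of the 99 tested in the related lists with an unadjusted p under 0.05, a share of 1.01% against 2.84% of all genes. Rab5a, of early endosomes, was at 43.9 ± 0.846 and 41.0 ± 0.396 FPKM, without overlap, and Exoc4, a subunit of the exocyst, at 5.42 ± 0.544 and 4.44 ± 0.413 FPKM.

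The known regulators of Pigr transcription gave no call. Of 13 tested, 7 were above and 6 below 0, with a median log2 change of 0.01, and 0 passed. Il17rc, a receptor subunit for IL-17, was at 41.7 ± 1.71 FPKM in the control libraries and 47.4 ± 3.20 in the mutant libraries, without overlap (log2 change 0.18, SE 0.086; unadjusted p = 0.069). Usf2, which encodes an E-box factor, was at 21.1 ± 1.33 and 23.5 ± 2.10 FPKM, and Il17ra at 5.53 ± 0.248 and 5.89 ± 0.180 FPKM.

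Recruitment was measured through one side of its ligand and receptor pair. Ccr10 (chromosome 11, 101034312 to 101036757) was at 7.49, 4.21 and 6.02 FPKM (controls), and 6.84, 5.84 and 7.29 (mutants), with the highest and the lowest library both among controls. The log2 change was 0.20 (SE 0.21), with a fold interval of 0.815 to 1.62, and it turned to -0.02 without control 2. Ccl28, its ligand, is listed at 0 FPKM in every library. The deposited locus of Ccl28 lies on chr13_random, an unplaced sequence of mm9, and all 59 genes on such sequences are listed at 0 in every library, against 19.5% of genes on other sequences. The 0 therefore gives no level for Ccl28, and no comparison was made.

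Ccl25, the small-intestinal chemokine gene that acts through Ccr9, was at 532 to 634 FPKM over the 6 libraries. In the list of homing genes 12 were tested, 5 above and 7 below 0, with a median of -0.03, and 0 passed. S1pr1, a receptor for lymphocyte exit, was at 4.37 ± 1.07 FPKM across controls, against 3.66 ± 0.840 across mutants. Itga4, an integrin gene, was at 2.46 ± 0.395 and 2.21 ± 0.072 FPKM.

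Tnfsf13b (chromosome 8, 10006633 to 10035999) was at 8.73, 10.5 and 10.9 FPKM in the control libraries and 9.50, 12.8 and 11.4 in the mutant libraries. Mutants 2 and 3 exceeded all controls, and the male was the lowest library of each group. Its log2 change was 0.15 (SE 0.14), with a fold interval of 0.881 to 1.40. Tnfsf13, which encodes APRIL, was at 28.4 ± 4.23 and 31.5 ± 0.603 FPKM, 2.40 to 3.81 times the level of Tnfsf13b in the same library. The 7 tested genes of the BAFF and APRIL system had a median log2 change of 0.03, 4 above and 3 below 0, and 0 passed. Among them Nfkb2 was at 8.64 ± 0.906 and 9.52 ± 1.04 FPKM and Map3k14, the NIK kinase gene of the same pathway, at 2.66 ± 0.208 and 2.92 ± 0.585 FPKM.

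**Figure D3:**
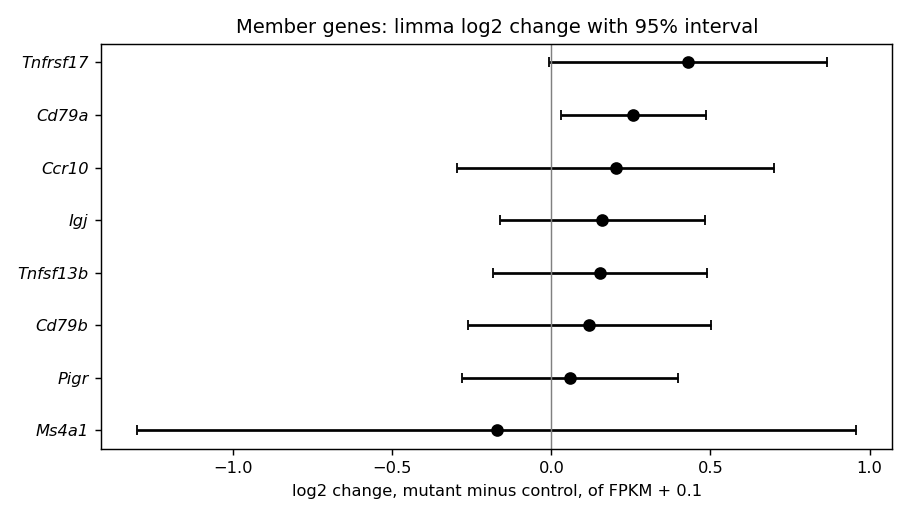
Log2 change, mutant minus control, on the log2(FPKM + 0.1) scale (x axis) of the 8 measured members, with the 95% interval of the limma fit. The interval of Cd79a alone excludes 0 before adjustment, and that of Ms4a1 is the widest.

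The earlier steps of the B cell response gave no call. Of 16 tested genes of germinal centres and class switching, 8 were above and 8 below 0, with a median of 0.0037, and 0 passed. Cd40, the receptor for T cell help, was at 0.909 ± 0.205 and 1.27 ± 0.186 FPKM (log2 change 0.45, SE 0.21; unadjusted p = 0.071), Cd40lg at 0.517 ± 0.281 and 0.353 ± 0.161 FPKM, and Tgfb1, the main IgA switch factor, at 7.76 ± 1.19 and 7.06 ± 0.378 FPKM.

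B cell surface and signalling genes had 7 of 16 above 0, with a median of -0.04, and 0 passed. Fcrl1 was at 0.764 ± 0.290 FPKM (controls), and 0.496 ± 0.040 (mutants), and Cd72, an inhibitory co-receptor, at 3.89 ± 1.46 and 2.80 ± 0.690 FPKM. Among 10 B lineage transcription factors 4 were above 0, the median was -0.02, and 0 passed. Pou2af1, the octamer coactivator kept by plasma cells, was at 14.3 ± 2.34 and 17.1 ± 2.06 FPKM (log2 change 0.26, SE 0.15), Ebf1 at 0.455 ± 0.070 and 0.331 ± 0.0078 FPKM without overlap, and Foxo1 at 9.91 ± 1.57 and 8.81 ± 1.01 FPKM. Of 21 immunoglobulin and surrogate light chain symbols sought, 3 had a row, all of the surrogate light chain, and 1 of them, Vpreb1, was tested (0.311 ± 0.195 and 0.571 ± 0.236 FPKM). Heavy and light chain genes were not analysed here.

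Over these 9 related lists, 51 of 99 tested genes were above and 48 below 0, and 7 had groups without overlap (7.07%), close to the 7.57% over all genes. Markers of other cells were measured beside them. T cell, myeloid and all-leukocyte markers had medians of 0.04, -0.01 and 0.01, with 10, 8 and 7 genes tested and 0 passed in each. Their summed levels overlapped between groups, at 54.3 to 74.1 and 52.6 to 71.2 FPKM for T cells. Markers of lymphoid follicles and the epithelium over them had a median of 0.15 over 8 tested genes, 5 above and 3 below 0 and 0 passed, near the median of 0.16 of the members. They summed to 96.3 to 116 FPKM in controls and 102 to 143 FPKM in mutants. Epithelial and smooth muscle markers had medians of 0.04 and 0.09. Epithelial markers summed to 6519 to 7538 and 6741 to 7519 FPKM, and smooth muscle to 584 to 792 and 625 to 842 FPKM. Pancreatic acinar markers had a median of -1.52 over 9 genes, with 0 passed, and summed to 6.07 to 49.3 and 10.5 to 52.2 FPKM. That median does not show a drop in every mutant. Pnlip, Prss2 and Ctrb1 were at 0 to 0.193 FPKM in control 2, mutant 1 and mutant 3. They were at 2.14 to 20.3 FPKM in control 1, control 3 and mutant 2. Cela1 was at 5.52 FPKM or more in every library. The part of these other cells in the members' values was not tested.

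**Figure D4:**
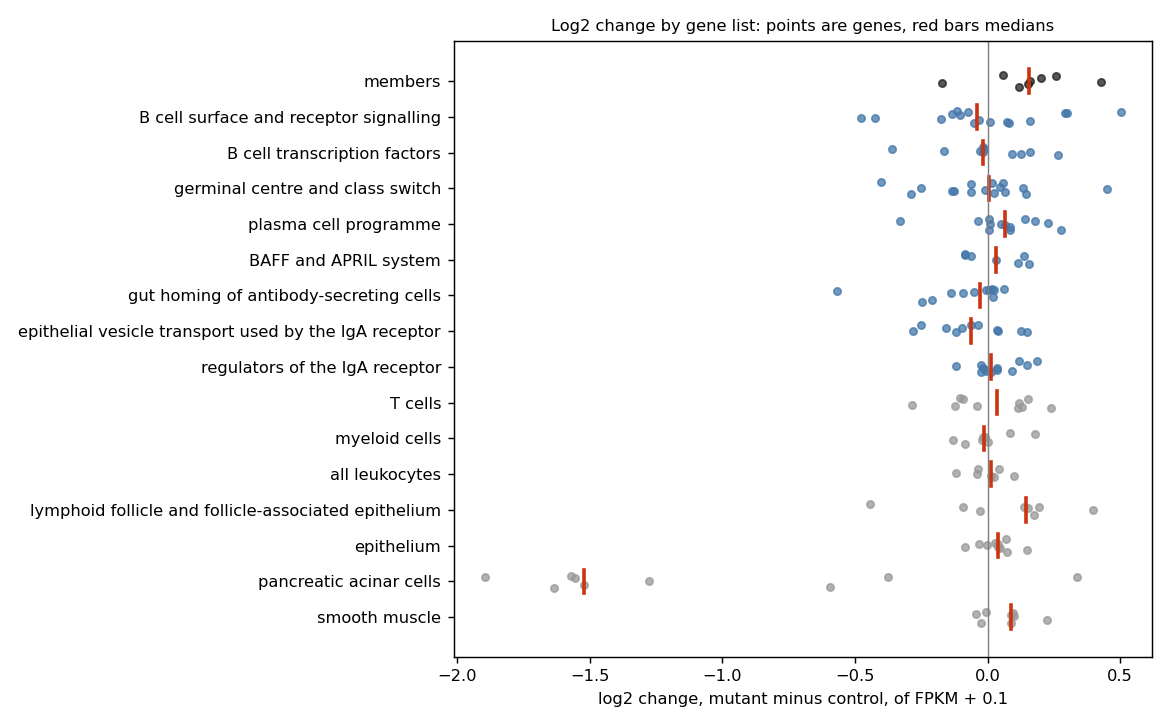
Log2 change, mutant minus control, on the log2(FPKM + 0.1) scale (x axis) of each tested gene by list, with members in black, related lists in blue, markers of other cells in grey and medians in red. The immunoglobulin list, with 1 tested gene, is not drawn. The medians drawn lie between -0.06 and 0.16, other than the pancreatic one at -1.52.

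The genes whose levels ran most like those of 3 members were found by Pearson correlation of log2(FPKM + 0.1) over the 6 libraries, among the 12306 genes averaging 1 FPKM or more. With so few libraries and so many genes these are descriptions, and the group and sex differences are shared by both sides of each correlation. For Cd79a they included Sfi1, Hist1h2bl, Mafg and Polr1c, for Igj they were Ugt2b35, Phf21a, Sigirr, Tecr and Dopey2, and for Pigr they were 2610528J11Rik, Gstz1, Mfsd9, Plekhg1 and Carkd. None of the genes named here is a member or in the related lists. Ugt2b35, a glucuronosyltransferase gene and the nearest to Igj, was at 48.1, 35.3 and 46.9 FPKM across controls, against 78.3, 39.1 and 55.5 across mutants. Sfi1, the nearest to Cd79a, was at 2.88, 3.53 and 3.41 FPKM in the control libraries and 5.75, 4.12 and 5.57 in the mutant libraries.

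The authors' deposited table, a DESeq comparison, called no member either. How many of all genes it called is not given here, so this says nothing particular to the members. In the authors' deposited table the fold changes were 1.37 for Tnfrsf17, 1.22 for Cd79a, 1.13 for Ccr10, 1.12 for Igj, 1.10 for both Cd79b and Ms4a1, 1.09 for Tnfsf13b and 1.03 for Pigr, all with an adjusted p of 1. Ms4a1 was thus above 1 there and below 0 on the log2(FPKM + 0.1) scale. Ccl28 had a normalized count of 0 in both groups of the authors' deposited table.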

How the data were processed

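The data are RNA-seq of duodenum. The submitters' processing notes name CASAVA 1.8.2, TopHat, Cufflinks, DESeq and build mm9, without settings. Per the file headers, the authors deposited FPKM per gene and per RefSeq isoform, with the read coverage (an unscaled signal) and the length of each isoform. Loci are counted from 0 there and are given from 1. The authors' deposited comparison table holds group means of normalized counts, fold changes (a ratio and its log2) and p-values.

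Rows with a repeated symbol were reduced to the highest, and 201 symbols without a successful estimate were left out. Groups were compared on log2(FPKM + 0.1), two-sided, for genes averaging 0.2 FPKM or more, using limma 3.58.1 (R 4.3.3) with its trend option, with Benjamini-Hochberg adjustment over all genes and a threshold of 0.05. Fold changes are on that scale, which understates low genes. Reads were recovered from coverage, as whole numbers within 0.05 for 79.7% to 81.4% of values of genes with 1 isoform. Each member had 1 isoform, and the same fit over isoforms called 0 of 8. The count over all isoforms is not given here. These reads are estimates, so limma-voom on them was an alternative only. The other alternatives were other pseudocounts, filters, scalings and weights, a replicate block, each library left out, and 2 settings for sex.

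The members and lists were chosen with earlier results of these data known. Named genes are the members, up to 3 genes of smallest p per related list, and the 5 genes most like Cd79a, Igj and Pigr. Pax5, Cr2, Fcer2a, Rab5a, Xbp1, Ccl25, Tnfsf13 and Epcam are shown as context, and those outside the rule were named after their values were seen. A few genes that the rule names are not reported here. The fit reported does not pair libraries by number. Deviations from the group means correlated at 0.21, 0.05 and 0.22 for numbers 1, 2 and 3, and at -0.26 to 0.06 for unlike numbers. Number 1 was the male in both groups, so pairing and sex cannot be told apart there. Whether the numbers pair the samples was not settled.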

Additional observations from a re-analysis of the deposited data

Results flagged for a closer look

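For Cd79b, both female mutants lay above both female controls while the male mutant lay below the male control, so the change ran in opposite directions in the sexes. The log2 change was 0.32 in females (9.11 and 11.5 FPKM on average) and -0.28 between the 2 males (11.4 and 9.38 FPKM). The difference of the 2 changes was 0.61, with an unadjusted p of 0.092 and an adjusted p of 1.0 in a limma fit with an interaction term over all genes, so it did not pass. The female and male changes also differed in sign for Ms4a1 (0.26 and -1.03), Ccr10 (0.37 and -0.13) and Pigr (0.13 and -0.08), but their female libraries overlapped between the groups. The difference for Ms4a1, 1.29 with an unadjusted p of 0.18, was larger than that for Cd79b. With 1 male in each group, the male values have no replicate. The male control was also the only control with the floxed allele, so sex and that allele cannot be told apart among the controls. How many of all genes show opposite directions by the same rule was not counted.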

How the results depend on the processing

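No alternative called a member, a gene of the related lists or an isoform of a member. Of 143 member values under 18 alternatives, 136 kept their direction and 7 turned sign, and the lowest adjusted p was 0.845. Cd79a, Tnfrsf17, Igj and Tnfsf13b kept their sign in all 18, at log2 changes of 0.19 to 0.33, 0.29 to 0.57, 0.04 to 0.28 and 0.05 to 0.27. With 1 library left out at a time (Pigr also at -0.0058 without mutant 1), Pigr ran from -0.039 to 0.19, Ccr10 from -0.019 to 0.39, Ms4a1 from -0.66 to 0.29 and Cd79b from -0.032 to 0.23. Quantile normalization put Pigr at -0.042, and the female libraries alone put Ms4a1 at 0.26. Both settings that use sex were chosen after seeing the data. With a filter of 1 FPKM Ms4a1 was not tested, and the isoforms were not run with limma-voom. The number of genes called was 0 in the fit reported, 12 with no filter, 1 with the replicate block, and 0 to 3 without 1 library (3 without control 3, and 1 without control 1, control 2, mutant 1 or mutant 3). The cause was not tested. The replicate block changed no call of a member. With it 850 genes had a limma unadjusted p under 0.05, against 416 in the fit reported. By deviations from the group means, each mutant correlated best with the control of its own number. Control 2 correlated at 0.05 with mutant 2 and at 0.06 with mutant 3. Depth limits Ms4a1, Pax5, Cr2 and Fcer2a, whose reads cannot show moderate differences.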
